A study of Mus musculus with 5 samples.

Results

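A set of 10 genes tied to the subtypes of intercalated cells was followed in mouse kidney: 3 anion exchangers (Slc4a1, Slc26a4 and Slc4a9), 3 transcription factors (Hmx2, Dmrt2 and Foxi1), 3 receptors (Insrr, Adgrf5 and Kit) and the adhesion molecule Hepacam2. They were taken by symbol from a fixed list, and all 10 were found among the 16934 genes listed. Levels and joint detection were read from 12121 cells, which are barcodes with at least 200 detected genes, out of 54072 barcodes. The cells came from 5 Drop-seq libraries of wild-type mice of the strain spelled C56BL/6N in the labels: 1 library of microdissected cortex, 1 of outer medulla, 1 of inner medulla and 2 of whole kidney. No treatment is named. The sources used here do not give age, sex or the number of animals per library. Where 5 values are listed in a row, they stand for cortex, outer medulla, inner medulla, whole kidney 1 and whole kidney 2 in this order. Drop-seq pairs each cell with a barcoded bead in a droplet and tags each captured mRNA molecule with a unique molecular identifier (UMI), so the values are molecule counts.

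Intercalated cells are the acid-base cells of the connecting tubule and collecting duct, and they carry a vacuolar proton pump together with chloride-bicarbonate exchangers. The alpha (type A) cell secretes acid and returns bicarbonate to the blood through Slc4a1 (AE1, band 3) in its basolateral membrane. The beta (type B) cell and the non-A, non-B cell carry Slc26a4 (pendrin) in the apical membrane, where it secretes bicarbonate and takes up chloride. Slc4a9 (AE4) is a basolateral transporter of beta cells. Foxi1, a forkhead factor, is required for intercalated cells to form. Hmx2 is a homeobox factor and Dmrt2 a DM-domain factor. Insrr, the insulin receptor-related receptor, is activated by alkaline medium. Adgrf5 (GPR116) is an adhesion G protein-coupled receptor, and Kit is the receptor tyrosine kinase for stem cell factor.

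The promoters below are shown because Hmx2 and Slc26a4 were found in the same cells and Dmrt2 in none of those cells. Each is the 250 bases before the gene's start on the gene's strand, from RefSeq on GRCm38.p6. Windows of 7 of the 10 genes were read. Slc4a9 was left out of this reading, and Slc4a1 and Insrr had no window. The windows are Hmx2 at chr7:131548507-131548756 on the plus strand (the first of its annotated starts), Slc26a4 at chr12:31559985-31560234 on the minus strand and Dmrt2 at chr19:25672161-25672410 on the plus strand. Capitals mark the match to a forkhead motif, TNTTTAC or its reverse complement GTAAANA.
Hmx2: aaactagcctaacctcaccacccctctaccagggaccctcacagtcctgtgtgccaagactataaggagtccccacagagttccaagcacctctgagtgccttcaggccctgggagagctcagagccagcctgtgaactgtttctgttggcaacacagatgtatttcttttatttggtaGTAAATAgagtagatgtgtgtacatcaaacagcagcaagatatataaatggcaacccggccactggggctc
Slc26a4: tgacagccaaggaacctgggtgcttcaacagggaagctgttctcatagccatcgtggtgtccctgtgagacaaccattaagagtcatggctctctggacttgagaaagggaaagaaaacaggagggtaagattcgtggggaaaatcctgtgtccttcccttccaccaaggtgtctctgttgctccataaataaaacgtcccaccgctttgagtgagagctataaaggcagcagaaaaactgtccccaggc
Dmrt2: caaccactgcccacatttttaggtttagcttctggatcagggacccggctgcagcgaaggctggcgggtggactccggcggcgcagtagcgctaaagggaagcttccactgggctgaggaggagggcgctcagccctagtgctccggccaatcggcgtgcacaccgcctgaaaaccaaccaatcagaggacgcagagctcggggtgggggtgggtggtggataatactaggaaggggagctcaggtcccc
The 7 genes have 10 windows, 1 for each annotated start. The forkhead letters stood in 1 of the 10, the Hmx2 window above, starting 71 bases before the gene's start (position -71), and not in the window of the other Hmx2 start. This share is near the background, since 10.9% of all 32841 mouse windows of this length held them. The letters CAAGTG or CACTTG, a core bound by HMX factors, stood in 2 of the 10 windows, that of Foxi1 and 1 of the 2 of Adgrf5, against 11.6% of all windows. These matches are letters in a window and were not tested as binding sites.

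Depth per cell was low and alike between libraries. The libraries held 898 to 3305 cells and 520663 to 2886013 UMIs in cells, with a median of 440 to 517 UMIs per cell, and 6 barcodes were shared over all pairs of libraries. Cells were grouped by clustering without the 10 genes, and 1 of 14 clusters met the intercalated markers: 8 of 10 markers were detected in at least 10% of its cells, among them the pump subunits Atp6v1g3 (94.5% of its cells) and Atp6v0d2 (55.1%). This intercalated cell-like class held 292 cells, 176156 UMIs and a median of 476 UMIs per cell. It made up 2.31%, 2.18%, 4.57%, 2.69% and 1.88% of the cells of the 5 libraries (71, 53, 41, 65 and 62 cells), the largest share being that of inner medulla. Slc4a1 is also a gene of red cells and Kit of mast cells. Only 2 of 7 erythroid markers and 1 of 7 mast cell markers were listed: Hbb-b2 had 1 UMI in the class, Alas2 had 0 and Hdc of mast cells had 0. The 10 lymphocyte genes listed had 0. Podocyte, endothelial and macrophage marker lists reached at most 178 CPM, counts per 1000000 UMIs, in any library. Of the 11 endothelial genes 6 were at 0, among them Emcn, Kdr and Pecam1, and the list had 14 UMIs. Markers of the connecting tubule were high in the class, from 3396 to 15453 CPM over libraries. Proximal tubule markers stood at 1163 to 3058 CPM, principal cell markers at 836 to 2419 and thin limb markers at 198 to 1954. Thick ascending limb markers reached 995 CPM, distal convoluted tubule markers 792 and fibroblast and pericyte markers 253. The part of these lists in the results was not tested.

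The genes were concentrated in the intercalated cell-like class, with Adgrf5 as the exception. Of all UMIs in cells, the class held 70 of 78 for Slc4a1 (89.7%), 216 of 258 for Slc26a4 (83.7%) and 89 of 100 for Slc4a9 (89.0%). It held 126 of 139 for Hmx2 (90.6%), 32 of 38 for Dmrt2 (84.2%) and 84 of 96 for Foxi1 (87.5%). For Insrr the figure was 24 of 27 (88.9%), for Kit 25 of 30 (83.3%) and for Hepacam2 104 of 117 (88.9%). All 9 of these shares lie between 83.3% and 90.6%, in a class that made up under 5% of each library. Adgrf5 had only 65 of its 154 UMIs there (42.2%, exact 95% binomial interval 34.3 to 50.4).

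Read per library on the scale of CPM + 100, a level at least 2-fold above that of all other cells in each of the 5 libraries was reached by 5 of the 10 genes, Slc4a1, Slc26a4, Hmx2, Foxi1 and Hepacam2. Over all 11202 genes that could be read, 57 reached it (0.509%). Slc4a9, Dmrt2, Adgrf5 and Kit passed in 4 libraries and Insrr in 3. Mean levels in the class over the 5 libraries were 453 ± 283 CPM for Slc4a1, 1106 ± 608 for Slc26a4, 456 ± 236 for Slc4a9, 647 ± 380 for Hmx2, 225 ± 208 for Dmrt2 and 496 ± 115 for Foxi1 (SD, n = 5). Insrr stood at 126 ± 93.3, Adgrf5 at 442 ± 390, Kit at 135 ± 44.0 and Hepacam2 at 616 ± 120. The 5 libraries are of 4 kinds of tissue, so these SDs hold regional differences as well as library error. The ranges over libraries of the class and of the other cells overlapped for Dmrt2 and Insrr, each with 1 library of the class at 0.

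**Figure D1:**
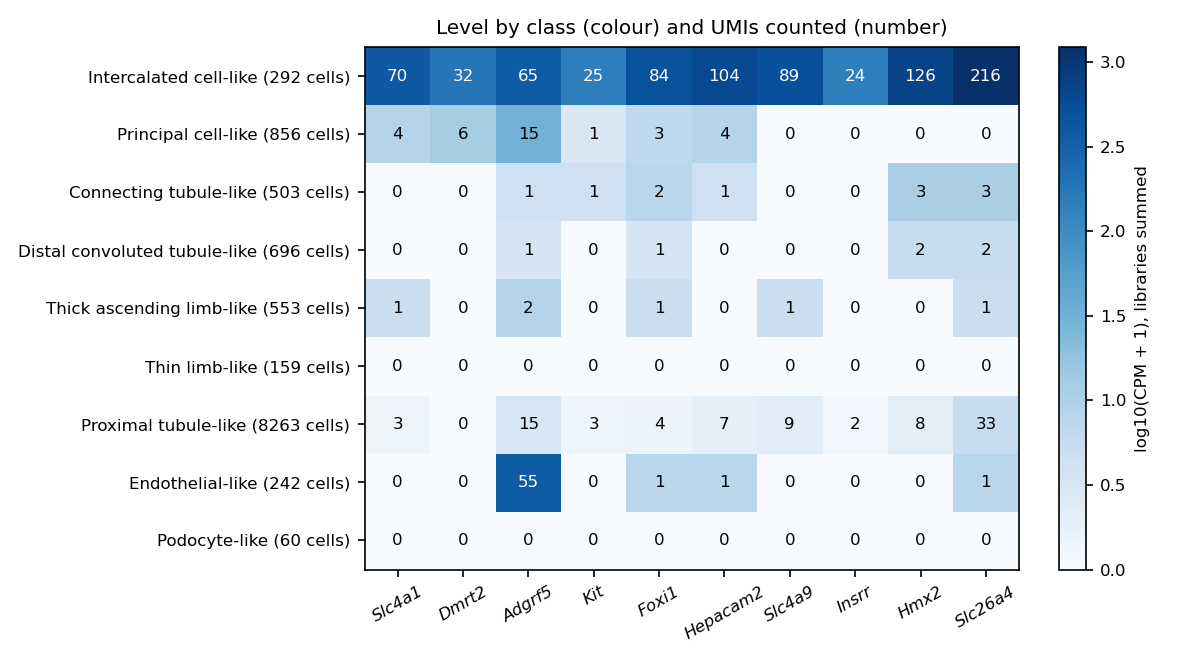
Level of each gene in each named class, libraries summed, as log10(CPM + 1) in colour, with the number of UMIs counted printed in each field. The top row, intercalated cell-like, is the darkest for 9 genes, and the endothelial-like field of Adgrf5 matches it.

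Adgrf5 was as high in endothelial-like cells, where it is a known vascular gene. They held 55 of its UMIs in 39 of 242 cells, or 370 CPM summed over libraries, against 369 CPM in the intercalated class. In the 3 libraries with enough endothelial-like cells the level was 318 ± 31.5 CPM (SD, n = 3), within the spread of the intercalated level, so the order of these 2 classes could not be told. Next came the principal cell-like class, which takes up sodium and water beside intercalated cells, with 15 UMIs and 23.1 ± 15.03 CPM (SD, n = 5). For the other 9 genes the next class after the intercalated one was far lower, and no other class held more than 17.2 CPM on average over libraries with enough cells. Dmrt2 had 6 UMIs in 6 of 856 principal cell-like cells, 17.2 ± 19.1 CPM (SD, n = 5), and 0 in every other class outside the intercalated one.

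Counts outside the class were few. Slc26a4 had 33 UMIs in 28 of 8263 proximal tubule-like cells (0.339% of cells at a median of 523 UMIs), or 4.56 CPM. Barcodes with under 100 genes gave 21.9 CPM, so summed over libraries the proximal tubule-like level lay below that of these barcodes. In inner medulla it lay above, at 36.9 CPM on 2 UMIs against 6.19 CPM on 1 UMI. The source of these counts was not tested. Intercalated cell-like cells had a UMI of Slc26a4 in 33.9% of cells at a median of 476 UMIs. Thinned to 250 UMIs per cell, which left out 10 intercalated and 21 proximal tubule-like cells, the shares were 21.5% and 0.134%. Of the proximal tubule-like cells, 8198 had no UMI of any of the 10 genes.

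The exchangers Slc4a1 and Slc26a4 were not found in the same cell. In the intercalated cell-like class 50 cells had a UMI of Slc4a1, 99 had a UMI of Slc26a4, 0 had both and 143 had neither. The product of their shares, taken within each library and summed, gives 13.6 cells with both. The count of 0 among 149 cells with either allows a share of up to 2.01%, which limits joint detection and not joint expression. Over all 54072 barcodes, including those under 200 genes, 95 had Slc4a1, 213 had Slc26a4 and 0 had both. Doublets were kept in these counts, since the doublet caller marked 0.182% of cells and cannot be taken as having worked.

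**Figure D2:**
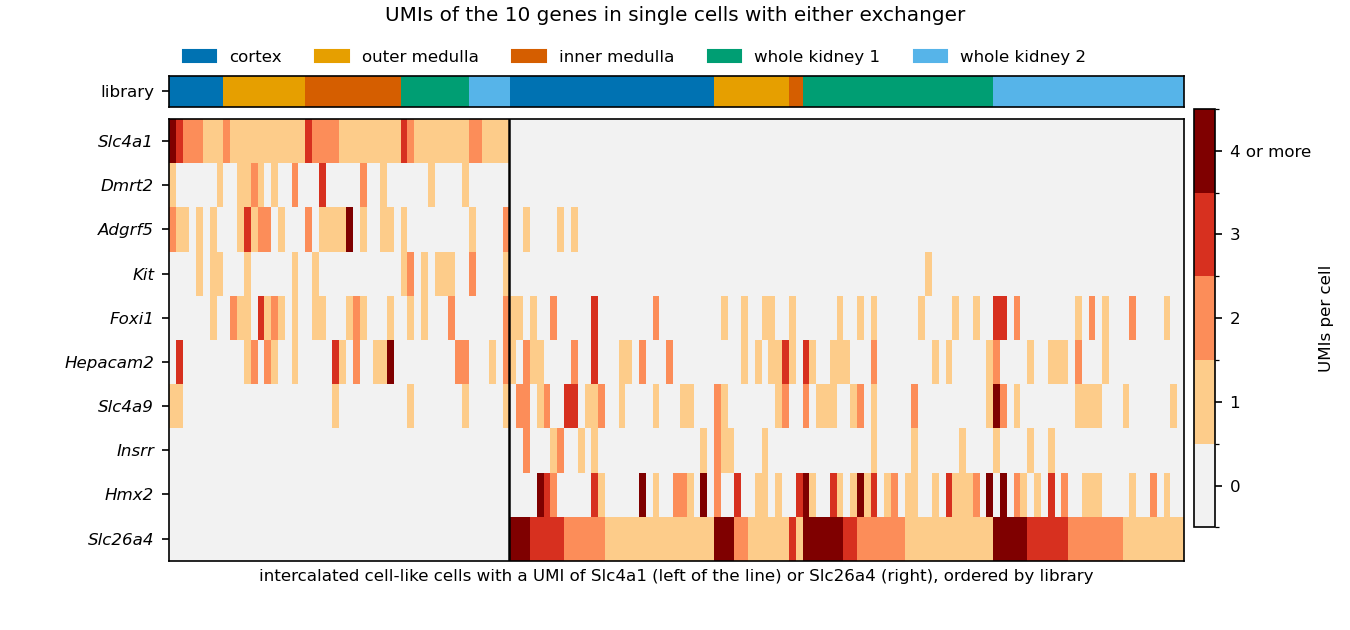
UMIs of the 10 genes (rows) in each of the 149 intercalated cell-like cells with a UMI of either exchanger (columns), ordered by library within the 50 Slc4a1 cells left of the line and the 99 Slc26a4 cells right of it. No column has both exchangers, Dmrt2 appears only left of the line, and Hmx2 and Insrr appear only right of it.

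The cells with neither exchanger had a median of 382 UMIs, against 569 in the 50 Slc4a1 cells and 604 in the 99 Slc26a4 cells, and at such a depth a missing count does not show that a transcript is absent. Of the 143, 31 had a UMI of Dmrt2, Adgrf5 or Kit and none of Hmx2, Insrr or Slc4a9. Another 32 had the reverse, 7 had genes of both sets and 73 had neither set. In the whole class 61 of 292 cells showed none of the 10 genes.

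Foxi1 and Hepacam2 were found with both exchangers, and the other genes mostly with one of them. Of the 45 pairs, 9 shared no cell: Slc4a1 with Slc26a4, Hmx2 and Insrr, Dmrt2 with Slc26a4, Hmx2 and Insrr, Kit with Hmx2 and Insrr, and Adgrf5 with Hmx2. Joint cells were above the product of the shares in 30 pairs and below it in 15. By difference the pair furthest above was Slc26a4 with Hmx2, seen together in 48 cells where the product of shares gives 24.3. On the other side, Slc4a1 and Adgrf5 shared 23 cells (product 10.3), Slc4a1 and Kit 14 (3.61) and Slc4a1 and Dmrt2 13 (5.27). All pairs share the same cells and their depth, so these numbers describe the class and carry no test.

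**Figure D3:**
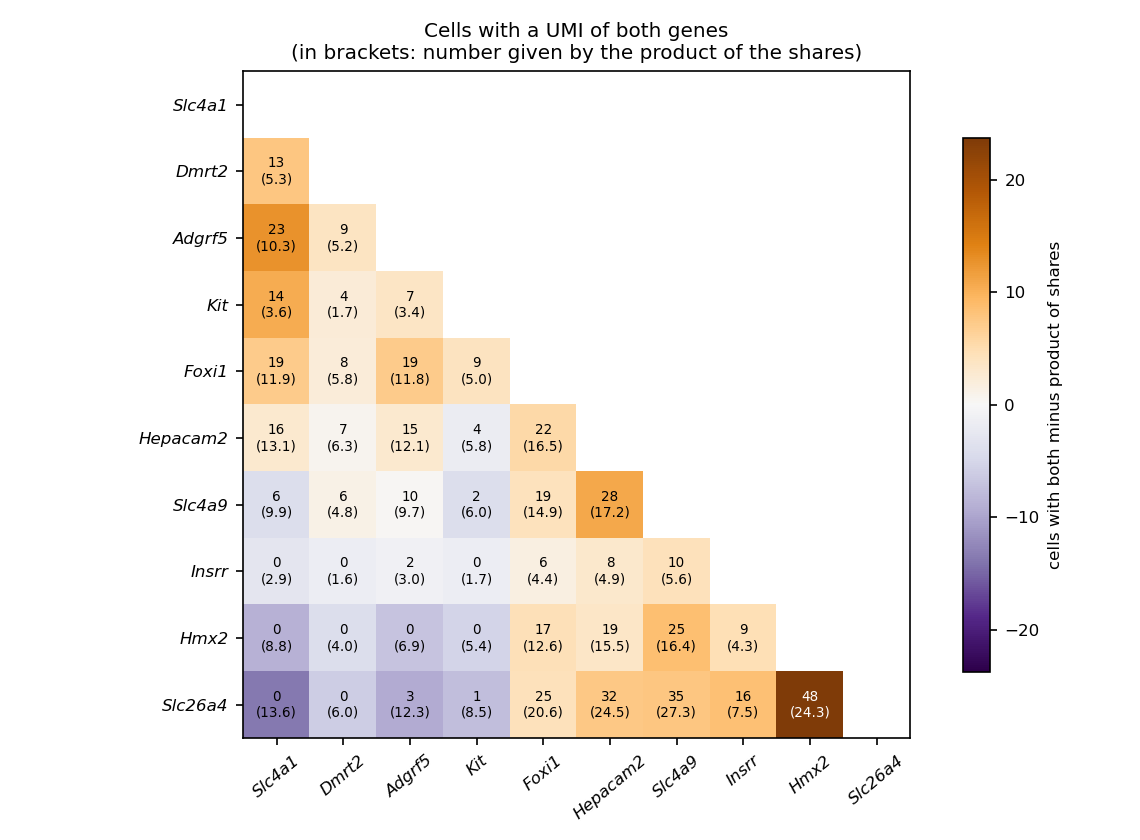
Number of intercalated cell-like cells with a UMI of both genes for each of the 45 pairs, with the number given by the product of the shares in brackets. Colour shows the difference: orange fields (30 pairs) are above the product and purple fields (15 pairs) below it. Slc4a1 is above the product with Dmrt2, Adgrf5 and Kit, Slc26a4 with Hmx2, Insrr and Slc4a9, and Foxi1 with all 9 other genes.

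To compare the other 8 genes, the 50 cells with Slc4a1 but not Slc26a4 were set against the 99 with Slc26a4 but not Slc4a1. They are called Slc4a1 cells and Slc26a4 cells below. Log2 differences are of CPM + 100, which understates the change of low genes. An exact two-sided sign-flip permutation test over the 4 libraries with at least 5 cells of each kind was run for the 8 genes, with Benjamini-Hochberg adjustment. The inner medulla was left out of it, having 2 Slc26a4 cells. With 4 libraries the smallest p it can give is 0.125, so no gene could pass 0.05.

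Among the transcription factors, Hmx2 and Dmrt2 were each confined to one kind in the cells counted, and Foxi1 was found in both. Hmx2 had 100 UMIs in 48 of 99 Slc26a4 cells (48.5%) and 0 in the 50 Slc4a1 cells, at least 15.1-fold higher. Its counts in Slc26a4 cells were 29, 8, 3, 39 and 21 UMIs over the 5 libraries. Every library showed the same direction, and the log2 difference over 4 libraries was -3.80 ± 0.46 (SD, n = 4; exact permutation p = 0.125, adjusted p = 0.2). Dmrt2 was the mirror image, with 18 UMIs in 13 of 50 Slc4a1 cells (26%) and 0 in the 99 Slc26a4 cells. Dmrt2 was higher in Slc4a1 cells, and the lower end of the exact interval was 9.71-fold. Its counts in Slc4a1 cells were 2, 8, 6, 2 and 0 UMIs over the 5 libraries. The direction held in 3 of 4 libraries, with no count of either kind in whole kidney 2 (exact permutation p = 0.25, adjusted p = 0.333).

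Foxi1 had 26 UMIs in 19 of the 50 Slc4a1 cells and 36 UMIs in 25 of the 99 Slc26a4 cells. The Slc4a1 cells were 1.60-fold higher, with a 95% interval of 0.93 to 2.72 that includes 1, and the order turned in cortex, where they had 1 UMI against 10. Its log2 difference over libraries was 0.23 ± 0.88 (SD, n = 4; exact permutation p = 0.625, adjusted p = 0.714). Hepacam2, which like Foxi1 is a gene of the class as a whole, had 29 UMIs in Slc4a1 cells and 45 in Slc26a4 cells, a 1.42-fold ratio (0.86 to 2.32). It was higher in Slc4a1 cells in 2 of 4 libraries and lower in the other two (exact permutation p = 0.875, adjusted p = 0.875). Scaled by TMM, which moves the median of all genes by -0.34 on the log2 scale, the pooled differences went from 0.58 to 0.29 for Foxi1 and from 0.45 to 0.15 for Hepacam2. With at least 2 UMIs for detection they were -0.73 and -0.11. A difference in either gene was therefore not shown, and these intervals do not show equal levels.

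The receptors divided between the kinds. Adgrf5 had 34 UMIs in 23 of the 50 Slc4a1 cells (46.0%) and 3 UMIs in 3 of the 99 Slc26a4 cells (3.03%), a 25.0-fold higher level (7.87 to 127). In Slc4a1 cells it stood at 1078, 981, 1463, 177 and 971 CPM over the 5 libraries, and all 3 UMIs in Slc26a4 cells came from cortex. Endothelial markers totalled 2 UMIs in Slc4a1 cells and 7 in Slc26a4 cells, with 9 and 7 of the 11 genes at 0. Kit had 16 UMIs in 14 Slc4a1 cells (28.0%) and 1 UMI in the Slc26a4 cells, a ratio of 35.3 with an interval of 5.49 to 1482. Both receptors were higher in Slc4a1 cells in 4 of 4 libraries (exact permutation p = 0.125, adjusted p = 0.2 each). Insrr went the other way, with 19 UMIs in 16 of 99 Slc26a4 cells (16.2%) and 0 in Slc4a1 cells. Insrr was higher in Slc26a4 cells, and the lower end of the exact interval was 2.11-fold. It was higher there in 4 of 4 libraries (exact permutation p = 0.125, adjusted p = 0.2), with 8, 5, 3 and 3 UMIs in cortex, outer medulla and the whole kidney libraries.

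Slc4a9 leaned to the Slc26a4 cells but was not confined to them. It had 52 UMIs in 35 of 99 Slc26a4 cells (35.4%) and 6 UMIs in 6 of 50 Slc4a1 cells (12%), a 3.92-fold higher level in Slc26a4 cells (1.69 to 11.2). The log2 difference over 4 libraries was -1.44 ± 1.38 (SD, n = 4), with the same sign in 4 of 4 (exact permutation p = 0.125, adjusted p = 0.2). The 6 Slc4a1 cells with Slc4a9 had 1 UMI of it each and a median of 961.5 UMIs, and together they had 6 UMIs of Adgrf5, 2 of Dmrt2 and 0 of Hmx2. Slc4a9 also shared 6 cells with Dmrt2, where the product of shares gives 4.80.

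Within the Slc26a4 cells, Slc4a9 did not mark off a set without Hmx2. Hmx2 was detected in 21 of 35 cells with Slc4a9 (60%, 42.1 to 76.1) and in 27 of 64 without it (42.2%, 29.9 to 55.2). As levels, Hmx2 stood at 1491 CPM in the former and 1190 CPM in the latter. The cells with Slc4a9 were deeper, with a median of 773 UMIs against 526.5. Insrr was found in 7 and 9 of these cells, at 258 and 248 CPM. Hmx2 was detected more often in the cells with Slc4a9 in cortex (53.8% against 23.5%) and outer medulla (50% against 42.9%). The same held in whole kidney 1 (77.8% against 63.2%) and whole kidney 2 (55.6% against 36.8%). In CPM the order turned in outer medulla (951 against 1787). Inner medulla had no Slc26a4 cell with Slc4a9. Cells are not replicates, so the overlap of the pooled intervals is no test, and a division of the Slc26a4 cells by Slc4a9 was not tested.

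Within the intercalated cell-like class, Slc4a1, Dmrt2 and Adgrf5 were higher in inner medulla than in cortex, and Slc26a4, Hmx2, Slc4a9 and Insrr were lower. With 1 library per region there is no test, and the intervals below are exact 95% intervals of counting error. Slc4a1 stood at 352, 462, 930, 330 and 192 CPM. Inner medulla was the highest, 2.64-fold above cortex (1.30 to 5.45). Dmrt2 stood at 132, 426, 465, 101 and 0 CPM, 3.52-fold higher in inner medulla than in cortex (1.16 to 11.8) and 3.23-fold higher in outer medulla than in cortex (1.12 to 10.5). Adgrf5 stood at 396, 497, 1070, 76.0 and 168 CPM, 2.70-fold higher in inner medulla than in cortex (1.40 to 5.31). Barcodes of inner medulla with under 100 genes gave 148 CPM of Adgrf5, also the highest of the 5 libraries.

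The genes of the Slc26a4 kind were lowest in inner medulla. Slc26a4 itself stood at 1232, 853, 186, 1673 and 1586 CPM, and cortex was 6.62-fold above inner medulla (2.45 to 25.1). Hmx2 stood at 770, 462, 140, 1166 and 697 CPM, with cortex 5.52-fold above inner medulla (1.74 to 28.0). Slc4a9 stood at 748, 426, 93.0, 507 and 505 CPM, with cortex 8.04-fold above inner medulla (2.06 to 69.1). Insrr stood at 220, 213, 0, 76.0 and 120 CPM. The exact interval of Insrr in cortex over inner medulla had a lower end of 1.06-fold. The inner medulla values of Slc26a4, Hmx2 and Slc4a9 rest on 4, 3 and 2 UMIs.

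Foxi1 and Hepacam2, which were found with both exchangers, varied less. Foxi1 stood at 462, 604, 605, 330 and 481 CPM and Hepacam2 at 550, 675, 791, 583 and 481 CPM, and the interval of inner medulla over cortex included 1 for both (0.60 to 2.74 and 0.73 to 2.77). Kit, which went mostly with Slc4a1, stood at 154, 107, 93.0, 203 and 120 CPM, on 2 UMIs in inner medulla and 7 in cortex. Its interval of inner medulla over cortex, 0.06 to 3.17, includes 1 and the ratio of Slc4a1. The log2 ratio of Kit between them was -0.40, but 0.65 in cells with at least 500 genes and 0.08 with at least 300, so no direction was shown. Between the whole kidney libraries, which give the spread between libraries of one tissue, Hmx2 was lower in whole kidney 2 by a factor of 0.60 (0.36 to 0.97), and for the other 9 genes the interval included 1. Adgrf5, on 3 and 7 UMIs, differed 2.21-fold between the whole kidney libraries (0.51 to 13.3), not far from its 2.70-fold difference between inner medulla and cortex. Both whole kidney libraries lay below every region for Slc4a1, Dmrt2 and Adgrf5, and above every region for Slc26a4. The source of this was not tested.

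**Figure D4:**
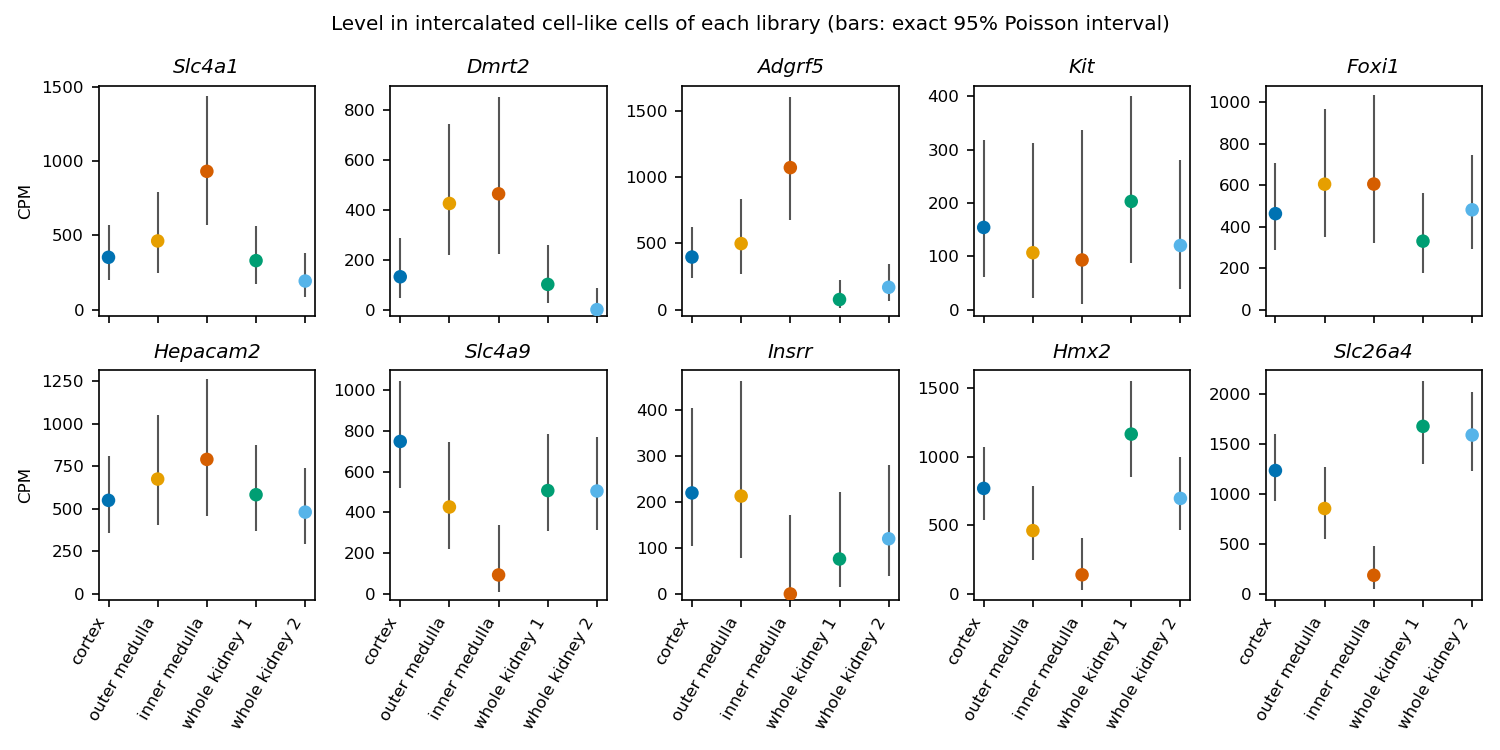
Level of each gene in intercalated cell-like cells of each library in CPM, with exact 95% Poisson intervals of counting error as bars. Slc4a1, Dmrt2 and Adgrf5 are highest in inner medulla, and Slc4a9, Hmx2, Insrr and Slc26a4 are lowest there.

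The mix of kinds stood in the same order of regions. Of cells with either exchanger, Slc4a1 cells made up 8 of 38 in cortex (21.1%, 9.55 to 37.3), 12 of 23 in outer medulla (52.2%, 30.6 to 73.2) and 14 of 16 in inner medulla (87.5%, 61.7 to 98.4). The whole kidney libraries gave 26.3% (13.4 to 43.1) and 17.6% (6.76 to 34.5), near cortex. After thinning to 250 UMIs the shares were 21.7%, 36.8%, 82.0%, 23.2% and 19.1%. The order of the regions was the same after thinning, and the interval of outer medulla overlapped both of its neighbours. The outer medulla share was unstable, at 83.3% in cells with at least 500 genes and 16.7% where detection took at least 2 UMIs. These shares count cells with a UMI and not cells expressing the gene.

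Genes outside the 10 were compared between the 2 kinds by size only. Of 651 genes with at least 20 UMIs in the higher kind, the exchangers included, 28 were at least 2-fold higher in Slc4a1 cells (4.30%) and 54 in Slc26a4 cells (8.29%). The minimum asks for a higher level in the Slc4a1 cells, which had 34052 UMIs in all against 75227, and with no minimum the counts were 182 and 145, the other way round. With TMM scaling they were 15 and 93, and the first was 14 without outer medulla and 16 without inner medulla. Of the 8 genes other than the exchangers, 5 could be read by this rule, and Adgrf5 passed on the Slc4a1 side, Hmx2 and Slc4a9 on the Slc26a4 side. The Slc4a1 cells came more from the medulla, so genes are named only if higher in the same kind in all 4 libraries with enough cells, which 11 genes on the Slc4a1 side and 33 on the Slc26a4 side were.

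On the Slc4a1 side the largest log2 ratio of CPM + 100 was that of Aqp6, an aquaporin of intracellular vesicles in intercalated cells, with 73 UMIs against 4 (40.3-fold, 15.1 to 152). By the same measure Defb1, a secreted defensin, followed with 163 UMIs against 33 (10.9-fold, 7.47 to 16.4). Cd24a, a surface glycoprotein, had a plain ratio above both on few counts, 20 UMIs against 1 (44.2-fold, 7.07 to 1831), and Mme, the membrane metallopeptidase neprilysin, had 37 against 10 (8.17-fold, 3.99 to 18.4). The others were Tmsb4x, Mtch2, Arhgap24, Cdkl1, Anxa4, Cnbp and Esd. Defb1, Cd24a and Tmsb4x are also genes of other cells here, since 5.52%, 2.57% and 2.43% of their UMIs lay in the intercalated class, against 90.1% for Aqp6.

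On the Slc26a4 side Car15, a membrane-bound carbonic anhydrase, had 274 UMIs against 2 (62.0-fold, 17.0 to 515). Spink8, a Kazal-type serine protease inhibitor, had 256 against 14 (8.28-fold, 4.84 to 15.4), Igfbp5, an insulin-like growth factor binding protein, 85 against 1 (38.5-fold, 6.72 to 1537), and Emb, the basigin-related protein embigin, 91 against 3 (13.7-fold, 4.55 to 67.8). The others named by the rule were Nudt4, Klk1, Spp1, Klk1b5, Etnk1, Rgs2, Hist1h2bc and Hsdl2. Klk1, tissue kallikrein, is a connecting tubule marker, with 985 UMIs in Slc26a4 cells against 62 in Slc4a1 cells. In Slc26a4 cells it gave most of the connecting tubule list, which had 1269 UMIs there and 149 in Slc4a1 cells, whereas Tmem213, the next gene of the list, had 201 and 75 (2672 and 2203 CPM). The whole list stood at 16869 CPM in Slc26a4 cells (10919 to 19962 over libraries) and 4376 CPM in Slc4a1 cells (2846 to 9936), with 2 and 3 of its 7 genes at 0, and its part in the results was not tested. The principal cell list stood at 944 CPM in Slc26a4 cells and 1615 CPM in Slc4a1 cells (Aqp2 2 and 10 UMIs), and the thin limb list at 93.1 and 940 CPM (Cryab 2 and 30 UMIs), and their part was not tested either.

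**Figure D5:**
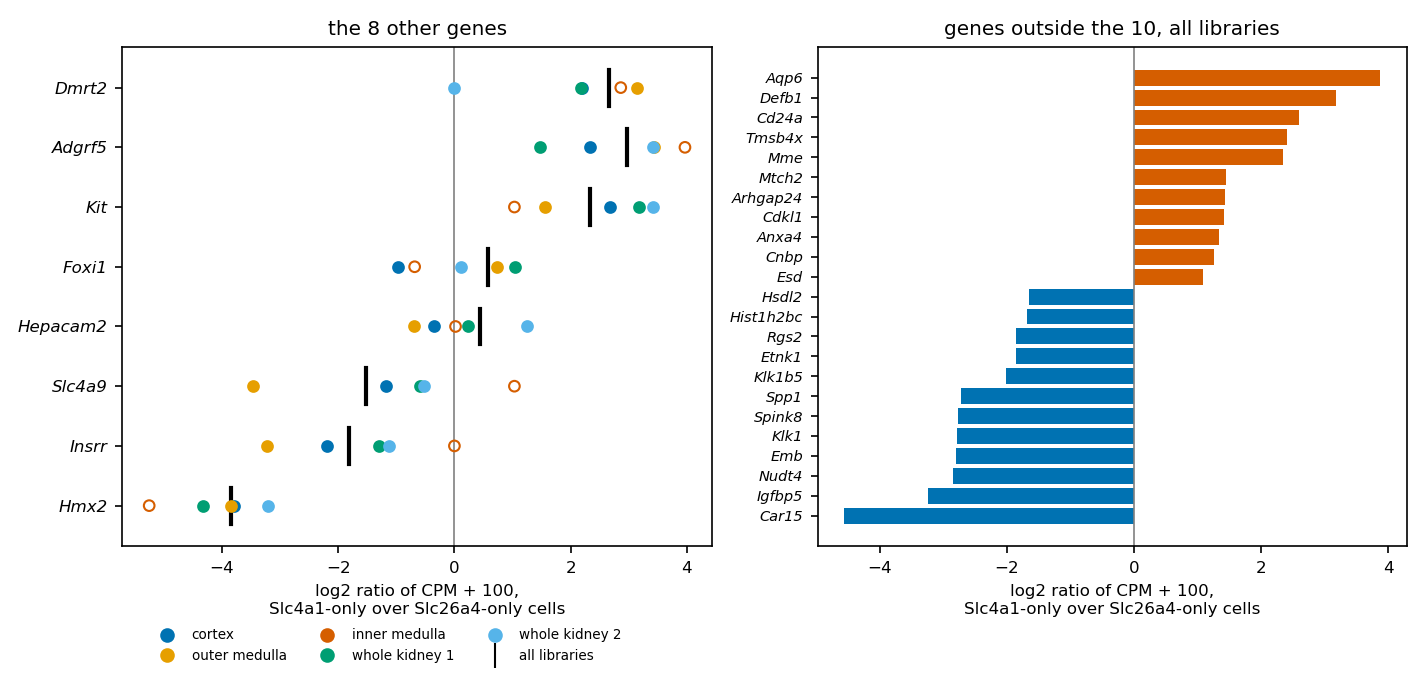
Log2 ratio of CPM + 100 between Slc4a1 cells and Slc26a4 cells. Left, the 8 other genes with a point per library (open for inner medulla, which has 2 Slc26a4 cells) and a bar for all libraries summed. Right, genes outside the 10 that were higher in the same kind in all 4 libraries, summed over libraries. Aqp6 is at 3.87 and Car15 at -4.56, and the points of Foxi1 and Hepacam2 lie on both sides of 0.

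The proton pump subunits that could be read stayed within 2-fold between the kinds, and some other acid-base genes did not. Of 17 proton pump subunits with at least 20 UMIs in the class, 15 could be read by the size rule and none was 2-fold apart. Over all 651 genes read, 4.30% were past 2-fold in Slc4a1 cells and 8.29% in Slc26a4 cells. A count of 0 in 15 is not far from these shares and does not show equal levels. The median log2 difference of the subunits was -0.15, against -0.13 over all genes read. Of these 15 the largest log2 ratio was that of Atp6v1b1, the pump's collecting duct B subunit, 1.93-fold higher in Slc4a1 cells (1.33 to 2.81), and Atp6v1g3 was 1.49-fold higher in Slc26a4 cells (1.30 to 1.71). Of 10 other acid-base and ion transport genes, 8 of them readable by the rule, Aqp6 was above 2-fold in Slc4a1 cells and Car15 and Car12 in Slc26a4 cells, with a list median of 0.16. Car12, another membrane carbonic anhydrase, was 2.33-fold higher there (1.42 to 4.04), and cytosolic Car2 was 1.46-fold higher (1.25 to 1.73). Rhcg and Rhbg, the ammonia transporters of these cells, were 1.47-fold (0.73 to 2.89) and 1.68-fold (1.03 to 2.73) higher in Slc4a1 cells.

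Of 5 other transcription and signalling genes with at least 20 UMIs in the class, 2 could be read and none passed the rule in either direction, with a median of 0.82. Gata3, a zinc finger factor of the collecting duct and also a principal cell marker, had 13 UMIs in Slc4a1 cells and 3 in Slc26a4 cells (9.57-fold, 2.63 to 52.4), under the minimum of 20. Tfcp2l1, a factor shared by intercalated and principal cells, was 1.95-fold higher in Slc4a1 cells (1.28 to 2.97). Jag1, a Notch ligand, had 3 and 16 UMIs (2.41-fold higher in Slc26a4 cells, 0.69 to 12.9), and Hes1, a Notch target, had 9 and 8 (2.49-fold higher in Slc4a1 cells, 0.85 to 7.40).

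Across 31 sums of a class in a library (8 classes), the gene whose level most resembled each of the 10 was given by Pearson's r of log2(CPM + 10). Slc4a1 was nearest to Serpinb9 (r = 0.95), Dmrt2 to Aqp6 (0.92), and Slc26a4, Slc4a9, Hmx2 and Insrr were all nearest to Oxgr1, the oxoglutarate receptor (0.91, 0.92, 0.94 and 0.89). Foxi1 and Kit were nearest to Atp6v1c2 (0.93 and 0.94), Hepacam2 to Guca2a, which encodes guanylin (0.98), and Adgrf5 to Lmcd1 (0.87). Oxgr1 had 9 UMIs in Slc4a1 cells and 20 in Slc26a4 cells (0.99-fold, 0.40 to 2.28). No difference between the kinds was shown, and this interval does not show equal levels. Oxgr1, Aqp6 and Atp6v1c2 are also among the markers used to name the class. The sums of a library share its depth, and for genes of 1 class r mostly reflects that class being high, so these are descriptions.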

How the data were processed

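The deposited tables hold counts: for each barcode they list whole numbers of UMIs by gene symbol, not normalized, with at least 50 genes per barcode. Per the labels, kidneys were perfused cold, digested with a cold-active protease and fixed in methanol before Drop-seq. The submitters' processing notes name mm9 and Seurat 2.3.1 with no role, and the sources used here do not name the aligner or say whether strand was used. Whether whole kidney 1 and 2 come from separate animals is not given, so p-values measure only the spread between these libraries.

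Cells had at least 200 genes. With the 10 genes left out, 2000 variable genes, 30 principal components and 15 neighbours were used for Leiden clustering at resolution 1.0 (scanpy 1.11.5, leidenalg 0.10.2), and clusters were named from marker lists where at least 3 markers reached 10% of cells. Differences from other accounts of these cells may come from these rebuilt names. One cluster of 497 cells stayed unnamed. Doublets were kept (22 called by Scrublet). CPM is a sum of UMIs over cells divided by the class total. Class levels use sums of at least 30 cells and 20000 UMIs. Intervals are exact at 95% (Clopper-Pearson, Poisson, conditional for ratios) and cover counting error only. A count of 0 is taken to allow up to 3 counts over the group. A fold against 0 counts is given as the lower end of its exact interval. TMM factors came from edgeR 4.0.16.

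Named genes outside the 10 were up to 12 per direction, by ratio, with at least 20 UMIs in the higher kind and the same direction in all libraries with at least 5 cells of each kind, without ribosomal protein, mitochondrial and haemoglobin genes. For each of 3 gene lists up to 8 genes were named by size. The genes, lists and rules were chosen with earlier results of these data known.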

Additional observations from a re-analysis of the deposited data

Results flagged for a closer look

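Barcodes with under 200 genes were left out of the comparisons, and they held UMIs of all 10 genes. They carried 42 UMIs of Slc4a1, 96 of Slc26a4 and 40 of Slc4a9, 49 of Hmx2, 18 of Dmrt2 and 41 of Foxi1. They carried 16 UMIs of Insrr, 169 of Adgrf5, 19 of Kit and 46 of Hepacam2. Each is above the 3 counts that a count of 0 allows. Among barcodes with at least 100 and under 200 genes, 22 had Slc4a1, 36 had Slc26a4 and 0 had both, and in those with under 100 genes 16 and 42 had either and 0 had both. In the middle range Slc4a1 was seen in 6 barcodes of inner medulla and Slc26a4 in 0, against 4 and 13 in cortex. Slc4a1 and Dmrt2 shared 3 barcodes there, Slc26a4 and Hmx2 shared 4, and Slc4a1 and Hmx2 shared 0.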

How the results depend on the processing

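Of 542 values recomputed under other settings for 56 results, 507 stayed within the spread or on the same side, 33 moved and 2 turned. The count of 0 cells with both exchangers was also 0 under each of the 12 alternatives run for it. That outcome was fixed in advance, since 0 of all 54072 barcodes had both, so it is no check. The turned values came with at least 2 UMIs for detection: the log2 ratio between kinds was -0.73 for Foxi1 and -0.11 for Hepacam2. That setting also gave shares of Slc4a1 cells with Dmrt2 of 6.67%, with Adgrf5 and with Kit of 13.3% each and with Slc4a9 of 0%. It gave shares of Slc26a4 cells with Slc4a9 of 20.4%, Hmx2 27.8%, Insrr 5.56% and Adgrf5 0%, and Slc4a1-only shares of 16.7% in outer medulla and 11.8% in whole kidney 1. Cells with at least 500 genes (70 intercalated cell-like cells) gave 96.0% of Slc4a9 and 50.8% of Adgrf5 UMIs in the class. They gave 68.4% of Slc4a1 cells with Adgrf5, 26.3% with Slc4a9 and 55.9% of Slc26a4 cells with Slc4a9. Slc4a1-only shares there were 83.3% in outer medulla, 100% in inner medulla and 6.25% in whole kidney 2, and 14 genes were higher in Slc4a1 cells. The log2 ratio of Slc26a4 in inner medulla over cortex was -3.60 there, and in outer medulla over cortex Foxi1 was at 1.24 and Kit at 1.42. For Insrr in inner medulla over cortex it was -1.71 with at least 300 genes and -1.77 without the highest 5% of doublet scores. A class from each cell's own marker score (554 cells, 263 shared) held 80.6% of Hmx2 UMIs. TMM factors gave 15 and 93 genes past 2-fold in Slc4a1 and Slc26a4 cells, and no minimum of UMIs 182 and 145. Leaving out each library in turn gave 77.3% to 94.7% of Kit UMIs in the class (highest without cortex), 0% to 4.23% of Slc26a4 cells with Adgrf5 (0% without cortex), and 14 to 26 genes higher in Slc4a1 cells (14 without outer medulla, 16 without inner medulla). The causes were not tested. No paired analysis between the tissue groups was possible because they share fewer than 2 replicate numbers. The permutation test between the kinds of cells was paired within library. The depth, a median of 476 UMIs per cell, limits every count of cells with a UMI.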

Other observations

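Some of the genes that went with either exchanger had a regional order in the intercalated cell-like class as a whole. They were picked by the split of these same cells, and the mix of kinds differed by region. Their order is therefore no separate observation. Aqp6 stood at 660 CPM in cortex and at 1634, 3024, 355 and 192 CPM in outer medulla, inner medulla and the whole kidney libraries. Defb1 had the same order of regions, at 1914, 3695, 5582, 1749 and 985 CPM in these libraries. Car15 stood at 1936, 1350, 46.5, 1977 and 3317 CPM and Spink8 at 1870, 1208, 512, 2941 and 2764 CPM, with inner medulla the lowest for both. Mme, also of the Slc4a1 side, stood at 308, 355, 465, 532 and 409 CPM, highest in whole kidney 1. With 1 library per region the order of regions has no replicate check. Outside the class, 6 of the 28 proximal tubule-like cells with Slc26a4 also had a UMI of another of the 10 genes and 4 had one of a proton pump subunit. The only principal cell-like cell with Foxi1 had 3 UMIs of it among 8780 UMIs in all.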
